A study of Oncorhynchus kisutch with 221 samples.

Results

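The set described here is 150 array probes whose signal in the white muscle of coho salmon was higher, by season medians, in ocean fall than in ocean summer and winter. They were taken from 43636 probes. A probe could enter when at least 50% of the fish of each of 6 season labels had a value, which left 18589 probes. Its SD among fall fish also had to lie below 1, and its summer median could not exceed its smolt median, and 8782 probes met all of these conditions. For each of them the larger of the summer and winter medians was subtracted from the fall median, and the 150 probes with the highest remainder, called the fall step below, were kept. Of the 8782 probes, 2664 had a fall step above 0. The median fall step over the set was 0.41, and 32 probes reached at least 0.5. The last probe inside, C021R004, and the first outside, C105R051, both had a fall step of 0.34 and differed in the fifth decimal, so no gap marks the edge of the set. The members were thus chosen by their season medians in smolt, summer, fall and winter fish, and differences of fall from summer and winter are given as a description with no test.

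Coho salmon (Oncorhynchus kisutch) hatch in rivers, live there as parr, turn into smolts that tolerate seawater, and spend their first year at sea growing fast. White muscle is the bulk of the fillet. Its fast fibres power burst swimming largely without oxygen, it takes up most of the protein laid down in growth, and it is a store of protein that a fasting salmon draws on. The gene behind a probe could not be looked up here, nor its sequence, so the probes are given by their array identifiers, their functions are not described, and the tissue label was not checked against muscle markers.

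RNA from 221 single fish was hybridised, 1 fish per 2-colour array, against a pool of muscle RNA from the same series, with 1 Alexa dye for every fish and another for the pool throughout. There were 9 parr, all of hatchery origin from the Chilliwack in 2008. The 48 smolts came from the Capilano (9 hatchery and 6 wild), the Chehalis (10 hatchery), the Puntledge (9 hatchery), the Salmon (6 wild) and the Chilliwack (8 wild, of 2008, while the other smolts were of 2009). At sea there were 15 spring fish, all wild and of 2009, 64 summer fish of which 57 were of 2009, 76 fall fish of which 68 were of 2009, and 9 winter fish of 2009. Ocean fish came from the Strait of Georgia or from the area labelled WCVI, the west coast of Vancouver Island. All spring fish were from the Strait. Of the summer fish 56 were from the Strait, and 38 were wild and 26 of hatchery origin. Of the winter fish 3 were from the Strait and 6 from the west coast. The fall fish were 29 hatchery and 29 wild fish of 2009 and 8 wild fish of 2008, all from the Strait, and 10 west coast fish of 2009. Of these 10 west coast fish 1 was of hatchery origin and the rest were wild. Fork length averaged 17.8 cm among summer fish, 25.3 cm among fall fish and 34.5 cm among winter fish, so season and size cannot be told apart between seasons.

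Values are taken as log2 ratios of fish over pool, where 0 is the level of the pool. The log base and the direction are likely, not stated. A pool of the same fish puts the log2 of the mean linear ratio near 0. Its median over the 331 most variable probes, those of variance above 1.6, was -0.07 when read this way, 1.70 when read as pool over fish and 0.68 when read as natural logs. Across 24310 pairs of arrays the correlation over tested probes ran from -0.427 to 0.811, and 105 pairs lay below -0.3, of which 91 joined fish of different seasons. The dyes are stated and were the same for all fish, so no array was turned round. That does not show whether fish or pool is the numerator. Array medians lay between -0.011 and 0.033, and 47.3% of all cells were empty. The number of arrays limits the precision.

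The season medians of the set did not run in 1 direction. The median over its probes was low in parr at -0.49, higher in smolts at -0.18 and low again at -0.45 in spring fish and -0.35 in summer fish. It stood at 0.12 in fall and was back at -0.44 in winter, while the median over the 18589 probes stayed between -0.01 and 0.01. Fall held the highest of the 6 season medians for 85.3% of the probes, parr for 17 probes and smolts for 5. The lowest lay in parr for 65 probes, in winter for 44, in spring for 32 and in summer for 9. In bulk muscle, a change in the cells sampled and a change in RNA per cell cannot be told apart. Smolt, summer and fall medians entered the rule, so their distances from spring and parr are a description. Spring medians lay below the smolt median for 85.3% of the set and 48.2% of the 18589 probes, with a median difference over the set of -0.26. Spring was also below summer for 99 probes (66% of the set), against 50.3% of the 18589 probes, and only 2 probes were higher in spring than in fall. Parr medians had the widest range, from -2.65 to 0.96, against -1.56 to 0.53 in spring and -0.70 to 0.68 in fall. In parr 80.7% of the set and 49.8% of the 18589 probes lay below their smolt median, with a median difference of -0.37, while 18 were higher in parr than in fall. Relative to the pool, 73.3% of fall medians were above 0 and 93.3% of summer medians were below it.

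Averaged over the 150 probes, single fish overlapped between seasons. The mean ran from -0.725 to 0.667 with a median of 0.148 over the 76 fall fish, and from -1.14 to 0.443 with a median of -0.335 over the 64 summer fish. Of the fall fish, 67 lay above the summer median and 7 above the highest summer fish. The 48 smolts ran from -0.865 to 0.540 around a median of -0.189, and the 15 spring fish from -1.02 to 0.210 around -0.448. Parr were close together, between -0.748 and -0.448, except for 1 fish at -1.16.

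The 9 winter fish did not form 1 level. Their means over the set were -1.29, -1.0, -0.930, -0.742, -0.271, -0.186, 0.052, 0.053 and 0.125, so that 3 of them lay above the lower quartile of the fall fish, -0.095, and 4 lay below the lowest fall fish. The winter median that entered the rule rested on this divided group. Hatchery fish made up 5 and wild fish 4 of the winter sample. The 4 lowest fish were replicates 1, 2 and 5, all wild, and replicate 7, a hatchery fish. Of the other 5, replicate 9 was wild and the rest were hatchery fish. Origin thus went largely with the upper and lower portions. Stock region did so too. Of the other 5, replicates 4, 6, 8 and 9 were labelled Puget_Sound and replicate 3 S_Main. Of the 4 lowest, replicates 1 and 2 were labelled Fraser, replicate 5 Puget_Sound and replicate 7 North. Replicates 1, 2 and 3 were from the Strait. The parts of origin, stock and catch area were not tested. The arrays of the upper and lower portions differed as well. The interquartile range over all probes of an array ran from 0.582 to 0.935 in the 4 lowest fish. In the other 5 it ran from 0.446 to 0.573. Of these 5, replicates 4, 6 and 8 shared a slide, and 66.0% to 67.8% of their cells were empty, against 27.7% to 49.3% in the other winter fish. Of the 4 lowest fish, replicates 1 and 5 shared another slide. The part of slides and of these array measures in the winter levels was not tested.

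C065R057 had the highest fall step, 0.82. It ran from -2.38 to 1.93 around a median of 0.32 in the 76 fall fish, from -2.21 to 1.43 around -0.50 in the 64 summer fish, and from -3.09 to 0.71 around -0.56 in the 9 winter fish. Its parr were lower still, from -2.86 to -0.57 around -1.54 in 9 fish. All of these ranges overlap. C001R039 was second, also with a fall step of 0.82 after rounding. Its fall values ran from -1.95 to 3.25 around 0.08 and its winter values from -2.89 to 0.32 around -1.34. Unlike C065R057 it was not low in parr, where 9 fish ran from -0.74 to 1.31 around -0.01. The probes thus share the difference between summer, fall and winter by choice, but not the level in parr.

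The fall step was also computed in portions of the fish, as a description of values the rule had used. Its median over the set was 0.38 in fish of 2009, 0.37 in wild fish and 0.34 in hatchery fish, and it was above 0 for 100%, 99.3% and 87.3% of the probes. Among the west coast fish of 2009, with 8 in summer, 10 in fall and 6 in winter, it was 0.26, with 77.3% of the probes above 0. Between summer and fall alone the median difference was 0.31 in wild Strait fish of 2009, 0.52 in hatchery Strait fish of 2009 and 0.64 in wild Strait fish of 2008. The choice of members depended on the use of medians: with season means in the same rule, 76 of the 150 probes (50.7%) were chosen again, against 80.7% under quantile normalization.

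The arrays lay on 61 slides. The members were chosen for higher medians in fall than in summer and winter in these same fish. The values by slide are thus a description and no check of the fall step. On the 16 slides that held both fall and summer fish, the mean over the set was higher in fall on 15, with a median difference of 0.404 and a range from -0.329 to 0.953. On the 2 slides with fall and winter fish it was higher in fall by 0.147 and 0.805. With values centred within slides of more than 1 season the fall step was 0.24, with 88% of the probes above 0. Of the array's own 60 control spots, 12 had enough values, with fall steps from -0.24 to 0.08. Unlike the members, these spots were not chosen by their fall step.

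The SD among fall fish entered the rule as an upper limit, and the season medians were taken over the same fish, so the spread is a description. The SD among fall fish had a median of 0.63 over the set, with a range from 0.313 to 0.999, and of 0.42 over the 18589 probes. The members also moved together from fish to fish within a season. Among fall fish the median correlation between 2 members was 0.206, with 82.8% of pairs above 0, against -0.003 and 49.4% for an evenly spaced sample of the 18589 probes. It was 0.219 among summer fish and 0.263 among smolts. The members were chosen for the same direction of change between seasons in these fish. The evenly spaced sample was taken without regard to direction, so the contrast with it is a description. A member's correlation with the mean of the other members in fall fish had a median of 0.488, and 6 members had a negative one. These correlations are over the same arrays and the authors' normalization, so the points share arrays. A count of members past a threshold is therefore not a count of independent results. Values were more complete in the set: 54.7% of members had a value in every fish, against 35.8% of the 18589 probes.

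Members lay in all portions of the array, though not in equal shares. With the array split at the middle column and the middle row of the identifiers, the portion with low column and high row numbers held 31.3% of the members and 25.4% of the 18589 probes, and the portion with high column and low row numbers held 18.0% and 25.1%. There were 6 members next to another member, and no count from other sets of probes was made for comparison.

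Spring and parr values were not used by the rule beyond being present, and were compared as a first test. Of the 150 probes, 27 differed between spring fish and parr by limma at an adjusted p under 0.05, 19 higher and 8 lower in spring. That is no larger a share than over all 18589 probes, of which 18.7% differed, 9.19% higher and 9.46% lower. The median difference was 0.06 over the set and -0.01 over all probes. The comparison sets wild fish of 2009 at sea against hatchery fish of 1 river in 2008, and no slide held both. Season, year, origin, size and slide cannot be told apart in it. With slide as a random block 19 members were called, against 2431 of all 18589 probes.

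Among the probes higher in spring, C112R052 ran from -4.48 to -0.44 around -2.65 in 9 parr and from -2.66 to 0.62 around -0.74 in 15 spring fish. The log2 difference of the means was 2.02 (SE 0.38, limma adjusted p = 1.29e-05), with overlapping ranges. C239R167 ran from -1.64 to -0.44 around -1.52 in parr and from -1.93 to 1.26 around 0.26 in spring, a difference of 1.58 (SE 0.24, limma adjusted p = 5.83e-08). Among those lower in spring, C244R121 ran from -1.82 to 1.52 around 0.91 in parr and from -2.26 to 0.21 around -0.85 in spring, a difference of -1.39 (SE 0.29, limma adjusted p = 7.52e-05). C146R002 had values in 8 parr and 11 spring fish and differed by -1.16 (SE 0.41, limma adjusted p = 0.0316). Values of single arrays were spread more widely in parr, with an interquartile range of 0.756 ± 0.125 (SD, n = 9) against 0.692 ± 0.0703 (SD, n = 15) in spring, and under quantile normalization, which removes that difference, 9 of the 150 probes passed, against 11.3% of all. Without the parr at -1.16 in the mean over the set, 22 passed, against 18.3% of all.

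Of the labels compared among fall fish, year had the most members called. In wild fall fish from the Strait of Georgia, 44 of the 150 probes were higher in the 8 fish of 2008 than in the 29 of 2009 by limma, and none was called lower. Over 22211 probes tested, 3.07% were called higher, 3.51% lower and 6.58% in either direction. The median difference was 0.46 over the set and -0.01 over all probes, and 90.7% of members had a positive one against 48.4% of all probes. The mean over the set was 0.423 ± 0.143 (SD, n = 8) in 2008 and -0.083 ± 0.318 (SD, n = 29) in 2009. The 2008 fish ran from 0.206 to 0.667 and the 2009 fish from -0.725 to 0.411, and 7 of the 29 lay above the lowest 2008 fish. The fall median behind the rule was taken over both years together, these 8 fish among them. Probes high in the fish of 2008 could thus enter the set more readily. The excess of members higher in 2008 is therefore not independent of the rule.

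C235R056 had the largest difference among the members called. Its values in the 8 fish of 2008 ran from 0.58 to 1.88 around 0.75, and in the 29 of 2009 from -1.94 to 0.83 around -0.40, a difference of 1.37 (SE 0.28, limma adjusted p = 0.00348). The fish of 2008 thus lay in the upper portion of the 2009 range or above it. In the 29 hatchery fish of 2009 it ran from -0.97 to 2.04 around 0.09. C180R101 ran from 0.09 to 1.97 around 0.56 in 2008 and from -2.59 to 1.07 around -0.43 in 2009, a difference of 1.31 (SE 0.34, limma adjusted p = 0.0193). Here the ranges overlapped over most of the 2008 values.

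The year difference could not be separated from the slides. The 8 fish of 2008 lay on 4 slides, and 1 slide held wild Strait fall fish of both years, where the 2008 fish was higher by 0.310 in the mean over the set. With slide as a random block 26 members were called, against 2.52% of all probes, and with fork length and catch area as covariates 19, against 2.22%. With slide as a fixed block limma called 0 members, against 0.0405% of all probes, 12 had an unadjusted p under 0.05, against 3.37%, and the median difference was 0.26. The 12 control spots differed by -0.34 to 0.28 between the years, with a median of 0.03. The fish of 2008 were 25.2 cm ± 1.14 (SD, n = 8) long and those of 2009 23.3 cm ± 2.48 (SD, n = 29). The stock regions in the labels differed too: 5 of the 8 fish of 2008 were labelled Fraser, against 9 of the 29 of 2009, and the part of stock in the year difference was not tested.

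In summer no member was called by year. In wild Strait fish, none of 146 members tested was called between the 5 fish of 2008 and the 26 of 2009 by limma, against 0.104% of 19237 probes, 16 had an unadjusted p under 0.05 against 13.9% of probes, and the median difference was 0.00. The mean over the set was -0.293 ± 0.253 (SD, n = 5) and -0.337 ± 0.307 (SD, n = 26). With slide as a fixed block the median was 0.33. This comparison was added after seeing the data. No test of whether the year difference itself differed between fall and summer is given, since the members were chosen by fall against summer. Summer medians entered the rule too, so this comparison is not independent of it. The same limit holds for origin, catch area and length among summer fish below.

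Hatchery and wild fall fish of 2009 from the Strait, 29 of each, were compared next, and the wild fish are the same as in the year comparison. None of the 150 probes passed by limma, as none of 21571 did (0%). At an unadjusted p under 0.05 there were 57, against 14.5% of the probes tested. Hatchery fish were higher for 90.7% of members and 51.2% of all probes, with a median difference of 0.24 over the set and 0.00 over all probes. The fall median behind the rule was taken over these fish too, so probes high in hatchery fall fish could enter more readily. The excess of members higher in hatchery fish is therefore not independent of the rule. The same limit holds for catch area, sex, length and condition among fall fish below. The mean over the set was 0.185 ± 0.249 (SD, n = 29) in hatchery and -0.083 ± 0.318 (SD, n = 29) in wild fish, with 5 and 17 fish below 0. The lowest group was the 5 wild fish caught in the northern Strait, at -0.386 ± 0.319 (SD, n = 5), while the 7 hatchery fish from there were at 0.298 ± 0.176 (SD, n = 7). For C065R057 the 29 hatchery fish ran from -1.0 to 1.93 around 0.71 and the 29 wild fish from -2.38 to 1.59 around -0.46. Its difference of 0.86 (SE 0.25) did not pass (limma adjusted p = 0.0999). C065R057 was followed here because it ranked first by the rule, which used these fish.

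Slides bore on this comparison too. On the 9 slides with both origins, hatchery fish were higher on 4, with a median difference of -0.006 and a range from -0.205 to 0.561. With slide as a fixed block the median over the set was 0.06, with 62.7% of members positive and 3 at an unadjusted p under 0.05 against 4.02% of all probes. With slide as a random block the median over the set was 0.21. Hatchery fish were also longer, at 25.7 cm ± 1.46 (SD, n = 29) against 23.3 cm ± 2.48 (SD, n = 29). With sex, fork length and catch area as covariates the median over the set was 0.23.

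In summer no member was called by origin. None of the 150 probes was called between 23 hatchery and 26 wild fish (0% of 21887 probes), 2 had an unadjusted p under 0.05 against 4.03%, and the median difference of hatchery minus wild was -0.02. With slide as a fixed block the median was -0.17, 18.7% of members were positive, and 19 had an unadjusted p under 0.05 against 4.87% of all probes. The share of all probes positive under that block is not given here. This comparison was added after seeing the data, and no test of the origin difference between fall and summer is given, for the same reason as for year.

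Smolts of the Capilano gave the other comparison of origins. The mean over the set was -0.205 ± 0.138 (SD, n = 9) in hatchery and -0.540 ± 0.384 (SD, n = 6) in wild smolts. Of the members 85.3% were higher in hatchery fish, with a median difference of 0.31. The share of all probes higher in hatchery smolts is not given here. One member passed by limma, against 0.569% of 22680 probes. That was C134R157, which ran from -0.58 to 0.87 around 0.18 in 9 hatchery smolts and from -1.74 to -0.21 around -0.83 in 6 wild smolts, a difference of 1.07 (SE 0.24, limma adjusted p = 0.0492). No member was called under quantile normalization, with slide as a random or a fixed block, or with fork length as a covariate. The median over the set turned to -0.35 with slide as a fixed block, and it was 0.55 with fork length as a covariate. The only slide with both origins held 1 hatchery smolt at -0.292 in the mean over the set and 1 wild smolt at 0.039. This wild smolt was the highest of the 6. The difference of hatchery minus wild there was -0.331, and the fixed block rests on this pair of fish. Among hatchery smolts the mean over the set was 0.090 ± 0.273 (SD, n = 9) in the Puntledge and -0.246 ± 0.326 (SD, n = 10) in the Chehalis. Over the 3 hatchery rivers 2 of 146 members differed by limma's F-test, against 0.825% of 19389 probes, in a comparison added after seeing the data. In C138R153 the 6 Puntledge smolts with a value ran from 0.09 to 1.23 around 0.75 and the 8 of the Capilano from -0.95 to -0.20 around -0.51, so these ranges did not overlap. For this probe the F-test over the 3 rivers gave limma adjusted p = 0.00321. In C041R048 the Puntledge mean was higher than the Capilano mean by 0.69, and the F-test over the 3 rivers gave limma adjusted p = 0.0348. The Chehalis smolts also entered the F-test, and their values in these probes are not given here. No member was called between the rivers with slide as a random block or with fork length as a covariate.

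Catch area, sex, length and condition were compared last. Of the 150 probes 1 differed between the 10 west coast and 58 Strait fall fish of 2009 by limma, against 1.14% of 21679 probes, and the median difference was 0.01. That probe, C156R081, ran from 0.40 to 1.10 around 0.82 on the west coast and from -1.28 to 1.04 around 0.25 in the Strait, a difference of 0.62 (SE 0.15, limma adjusted p = 0.0175). No member was called between the areas with origin and fork length as covariates or with slide as a fixed block. West coast fish were longer, at 30.1 cm ± 2.86 (SD, n = 10) against 24.5 cm ± 2.37 (SD, n = 58). Origin differed too: 1 of the 10 west coast fish was of hatchery origin, against 29 of the 58 Strait fish. Stock and area cannot be told apart: 8 of the 10 west coast fish were labelled Columbia, North, Oregon or Puget_Sound, and 57 of the 58 Strait fish Fraser, S_Main or ECVI. No member was called between the areas in summer (0% of 21748 probes), and 11 had an unadjusted p under 0.05 against 6.73%.

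Between 38 female and 37 male fall fish no member was called by limma, against 0.00915% of 21850 probes, and 9 had an unadjusted p under 0.05 against 5.6%. The difference of female minus male was above 0 for 12% of members and 48.1% of all probes, with a median over the set of -0.12. With slide as a fixed block the median was -0.02, with 42.7% of members above 0. The mean over the set was 0.028 ± 0.353 (SD, n = 38) over the females, less than 1 SD below the 0.150 ± 0.255 (SD, n = 37) of the males.

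Fork length called no member in 58 fall fish (0% of 22301 probes), with 20 at an unadjusted p under 0.05 against 10.8%. The slope was positive for 83.3% of members, with a median of 0.03 per cm, and with origin, sex and catch area as covariates the median was -0.0049 per cm. The share of all probes with a positive slope is not given here. In 49 summer fish no member was called (0% of 22314 probes), 21 had an unadjusted p under 0.05 against 8.53%, and the median slope was 0.03 per cm. Condition factor, the mass for a given length, called no member in fall (0.0136% of 22090 probes), with 13 at an unadjusted p under 0.05 against 6.99% and a median of 0.00 per 0.1 unit.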

How the data were processed

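Fish RNA and the pool were labelled by indirect dye coupling, per the labels' protocols. The authors deposited 1 normalized value per probe and fish, taken as a log2 ratio of fish over pool. The deposited series matrix holds the same values, except for 3168 cells of 1 parr array that it lacks. Spot quantification, background correction, normalization, log base, direction and the reason for empty cells were not given in the sources used here. Depth does not apply to arrays.

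Fish were grouped by season label. Titles, which name each fish a smolt, were set aside. Replicates are separate fish, numbered in accession order. All value columns were used. The members, lists and comparisons were chosen with earlier results of these data known. Gene and marker lists could not be tested, since no probe identifier was found in the Okis_V2 gene table given.

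Tests used lmFit and eBayes of limma (version 3.58.1) under R (version 4.3.3), with files read by data.table (version 1.17.8) and with Benjamini-Hochberg adjustment over all probes tested within each comparison and a threshold of 0.05. A probe was tested with a value in at least 50% of the fish of each group. Spring and parr were compared in 1 fit over 221 fish with a coefficient per season; each other comparison used only its own fish, without covariates. There were 10 planned comparisons across probes and 3 added after seeing the data. The 60 control rows were left out of tests. Probes named are the 2 with the highest fall step, those at the edge of the set and, per comparison, at most 2 higher and 2 lower with the largest differences among members called; the best-ranked probe was also followed in the origin comparison. Alternatives were quantile normalization, trended robust eBayes, a filter at 80%, slide as a random or fixed block, other labels as covariates, other fish, and leaving out fish. The fits were tested on simulated data. Tables were made with Python 3.11.15, pandas 2.3.3 and numpy 2.4.6.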

Additional observations from a re-analysis of the deposited data

Results flagged for a closer look

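In 39 sets of 4 to 10 fish, 11 of them means over the 150 probes and the rest single probes in parr or winter fish, 4 had a fish far from the others; about 1 in 20 such sets would by chance. The mean over the set in parr replicate 8 was -1.16, while the other parr lay between -0.748 and -0.448. C235R056 was at -2.39 in the same fish, with the others between -1.33 and -0.62. In parr replicate 9, C239R167 was at -0.44 (others -1.64 to -1.10). In winter replicate 1, C244R121 was at -2.17 (others -0.64 to 0.21).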

How the results depend on the processing

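Under other settings 21 counts of members called moved and 2 of the medians followed changed sign. The other values followed kept their direction and moved by no more than 1.5 times for a count and by less than 1 SD between fish for a median. That SD can be larger than the median itself, so this limit for medians is wide. The median for origin in fall went from 0.24 to 0.06 with a fixed slide block and stayed within it. Medians were followed for spring against parr, for origin, year, sex and length in fall, for Capilano origin and for the fall step. Some medians not followed also changed sign with a fixed slide block. These were area in summer (0.06 to -0.34) and in fall (0.007 to -0.08), condition factor in fall (0.001 to -0.02) and year in summer (-0.005 to 0.33). The medians for origin and fork length in summer kept their sign there. The members called in spring against parr went from 27 to 9 (11.3% of all probes) under quantile normalization. For year in fall they went from 44 (6.58% of all probes) to 28 (3.57%) under quantile normalization, 26 (2.52%) with slide as a random block, 19 (2.22%) with other labels as covariates and 0 (0.0405%) with a fixed slide block, and the median over the set ran from 0.26 to 0.46. For area in fall they went from 1 (1.14%) to 2 under quantile normalization (1.46%) and under the 80% filter (1.40%), and to 0 with covariates (0%) and with a fixed slide block (0.0600%). For origin in Capilano smolts they went from 1 (0.569%) to 6 with trended robust eBayes (1.88%), 2 under the 80% filter (0.742%) and 0 under quantile normalization (0.467%), a random (0.00882%) or fixed (0.0838%) slide block or covariates (0.0353%), and the median went from 0.31 to -0.35 with a fixed slide block. For hatchery rivers they went from 2 (0.825%) to 1 under the 80% filter (0.80%) and 0 with a random slide block (0%) or covariates (0.0413%). Counts of 0 became 1 for origin in fall under the 80% filter (0.0683%), 1 for fork length in fall with a fixed slide block (0.00448%) and 3 for fork length in summer with covariates (0.318%). The median slope on fork length in fall went from 0.03 to -0.0049 with covariates. The causes were not tested. A fixed slide block uses only fish that share a slide, which leaves few.

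No paired analysis was possible because replicate numbers only follow accession order. The labels name no genes, and the choice of members, the divided winter group and unequal years, origins and sizes between seasons limit what the set shows. No fixed slide block was run for hatchery rivers or for spring against parr. Spring against parr was also not fitted with other labels as covariates.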
